A study of Mus musculus with 2 samples.

Results

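The genes described here are the semaphorins, plexins and neuropilins, a family of guidance ligands and their receptors. They were picked out by gene symbol, a rule that uses no measured value, and comprise 31 of the 55536 genes listed in the gene tables. Of these, 20 were semaphorins, 9 were plexins and 2 were neuropilins. The tissue was the left cerebral cortex of female mice of the B6CASTF1/J strain, the first-generation cross of C57BL/6J and CAST/EiJ, at an age of 14 days, with no treatment or transgene named. Sequencing of total RNA, without its ribosomal part, gave 2 libraries of this 1 group, called biological replicate 2 and biological replicate 1. Each started from 300 ng of RNA and held ERCC spike-ins, synthetic transcripts added as an internal scale. Both libraries carry the same donor entry, a shared description names 3 females, and how many mice stand behind each library is not known, so the spread between them may be partly technical.

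Semaphorins are extracellular signals that share a conserved sema domain and steer growing axons, dendrites and synapses. Class 3 members are secreted, those of classes 4 to 6 span the membrane, and class 7 is held by a lipid anchor. Plexins are the signalling receptors, with an intracellular GTPase-activating domain, and most class 3 ligands bind them through the co-receptors neuropilin 1 and neuropilin 2. In the postnatal cortex the family is known for callosal and corticofugal axon guidance, for dendrite shape and for the pruning of spines and synapses.

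The expected counts on genes summed to 32.0M for replicate 2 and to 33.4M for replicate 1, of which the family took 0.249% in replicate 2 and 0.241% in replicate 1. The share of spike-ins was 0.361% in replicate 2 and 0.359% in replicate 1, and that of mitochondrial genes was 6.62% in replicate 2 and 7.44% in replicate 1. The tissue label was compared with a list of 10 genes of excitatory cortical neurons. Each of them reached 1 TPM in both libraries, a limit that 58.8% of all protein-coding genes passed. Of that list 6 genes were called lower in replicate 2, beside 11.4% of all tested genes. The calls are from the exact binomial test of counts described with the library comparison. The list had a median log2 ratio of replicate 2 over replicate 1 of −0.13. Slc17a7, the vesicular glutamate transporter of those neurons, had 743 TPM in replicate 2 and 771 TPM in replicate 1. Markers of other cells and regions differed between the libraries. All 8 genes of a myelinating oligodendrocyte list were lower in replicate 2, with a summed level of 707 TPM in replicate 2 against 1288 TPM in replicate 1. All 7 striatal genes were lower too, with 179 TPM in replicate 2 against 287 TPM in replicate 1, and all 5 choroid plexus genes were higher, with 137 TPM in replicate 2 against 12.1 TPM in replicate 1. Most of that sum was Ttr, and the other 4 genes came to 6.33 TPM in replicate 2 against 2.27 TPM in replicate 1. Among 4 genes of oligodendrocyte precursors 3 were lower, at 113 TPM in replicate 2 against 125 TPM in replicate 1, and among 5 of astrocytes 3 were lower and 1 higher, at 1372 TPM in replicate 2 against 1483 TPM in replicate 1. In a meningeal fibroblast list 2 of 5 genes were higher, with 72.1 TPM in replicate 2 against 55.8 TPM in replicate 1. Of all tested genes 8.88% were called higher in replicate 2. Deeper genes are called more often, and 29.8% of genes with 1000 to 20000 counts over both libraries were called in either direction. In bulk tissue, fewer cells of a type and less RNA per cell cannot be told apart.

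Some sequences are given first, of exons that tell apart the forms of 3 members whose forms are compared between the libraries. Neuropilin 2 (Nrp2, chr1:62703285-62818695, plus strand) ends in 1 of 2 alternative last coding exons, which encode different membrane-spanning and intracellular parts and define the forms usually called Nrp2a, from the farther exon, and Nrp2b, from the nearer. An internal exon exists in a short form of 21 bases and a long form with 15 further bases, shown in capitals, and a cassette of 51 bases can precede the farther last exon. All are coding sequence of GENCODE M21 transcripts on GRCm38, plus strand, at chr1:62815333-62815634 (the first 300 of its 302 coding bases are shown), chr1:62795709-62795986, chr1:62786281-62786316 and chr1:62812534-62812584 in this order.
Nrp2 farther last coding exon: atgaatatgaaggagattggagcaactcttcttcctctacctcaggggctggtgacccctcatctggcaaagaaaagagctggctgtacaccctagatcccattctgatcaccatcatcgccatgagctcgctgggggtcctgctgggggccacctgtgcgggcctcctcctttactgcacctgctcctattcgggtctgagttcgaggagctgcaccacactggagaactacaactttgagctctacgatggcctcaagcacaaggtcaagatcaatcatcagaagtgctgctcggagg
Nrp2 nearer last coding exon: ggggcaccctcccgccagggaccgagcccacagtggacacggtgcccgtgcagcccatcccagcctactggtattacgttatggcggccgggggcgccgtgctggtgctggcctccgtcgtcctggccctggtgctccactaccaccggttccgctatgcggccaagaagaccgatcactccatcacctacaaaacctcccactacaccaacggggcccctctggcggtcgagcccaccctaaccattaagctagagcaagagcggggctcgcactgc
Nrp2 alternative exon, long form: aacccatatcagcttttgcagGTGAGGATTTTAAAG
Nrp2 cassette: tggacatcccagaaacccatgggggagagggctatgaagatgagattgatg

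Semaphorin 6D (Sema6d, chr2:124089969-124667770, plus strand), a transmembrane ligand of plexin A1, has 2 cassette exons of 57 and 168 bases within its coding sequence, at chr2:124660705-124660761 and chr2:124662204-124662371. Semaphorin 4D (Sema4d, chr13:51685529-51793747, minus strand), a ligand of plexin B1 that oligodendrocytes are known to carry, has a partial annotated transcript, with no start found, that uses other last exons than the full coding transcripts. The first of these exons, of 204 bases at chr13:51700837-51701040, is shown because that transcript alone held over 40% of the gene's TPM. All 3 are from GENCODE M21 on GRCm38, on the strand of the gene.
Sema6d first cassette: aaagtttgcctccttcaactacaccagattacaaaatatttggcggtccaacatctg
Sema6d second cassette: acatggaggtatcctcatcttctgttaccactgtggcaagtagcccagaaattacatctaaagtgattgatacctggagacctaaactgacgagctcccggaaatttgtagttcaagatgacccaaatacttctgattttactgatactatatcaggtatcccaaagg
Sema4d exon of the partial transcript: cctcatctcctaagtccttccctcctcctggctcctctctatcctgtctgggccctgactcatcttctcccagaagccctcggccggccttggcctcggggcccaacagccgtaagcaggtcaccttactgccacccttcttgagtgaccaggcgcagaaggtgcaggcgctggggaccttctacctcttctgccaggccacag

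The family was broadly expressed. Of the 31 genes, 30 reached 1 TPM or more in both libraries, 28 reached 5 TPM, and the exception at 1 TPM was Sema3b, with 1.82 TPM in replicate 2 and 0.97 TPM in replicate 1. Among protein-coding genes as a whole, 58.8% passed that limit. TPM, a share of all transcripts, corrects for transcript length, so levels may be compared between genes. Summed over the family, the 20 ligands came to 417 TPM in replicate 2 and 419 TPM in replicate 1, and the 11 receptors to 337 TPM in replicate 2 and 289 TPM in replicate 1. Over complete coding transcripts alone the receptors came to 266 TPM in replicate 2 and 244 TPM in replicate 1. On summed counts the log2 ratio of replicate 2 over replicate 1 was 0.04 for the receptors and −0.09 for the ligands.

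The membrane-bound ligands made up most of the ligand total. Class 6 held 145 TPM in replicate 2 and 137 TPM in replicate 1, and class 4 held 135 TPM in replicate 2 and 140 TPM in replicate 1. Sema7a, the lipid-anchored member of class 7, contributed 59.7 TPM in replicate 2 and 68.2 TPM in replicate 1 by itself. The 7 secreted class 3 genes held 48.4 TPM in replicate 2 and 44.2 TPM in replicate 1 together, 11.6% of the ligand total in replicate 2 and 10.5% in replicate 1, and the 2 class 5 genes held 28.3 TPM in replicate 2 and 30.5 TPM in replicate 1. Over complete coding transcripts alone class 6 stood above class 4. It held 124 TPM in each library, and class 4 held 79.6 TPM in replicate 2 and 79.0 TPM in replicate 1.

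**Figure D1:**
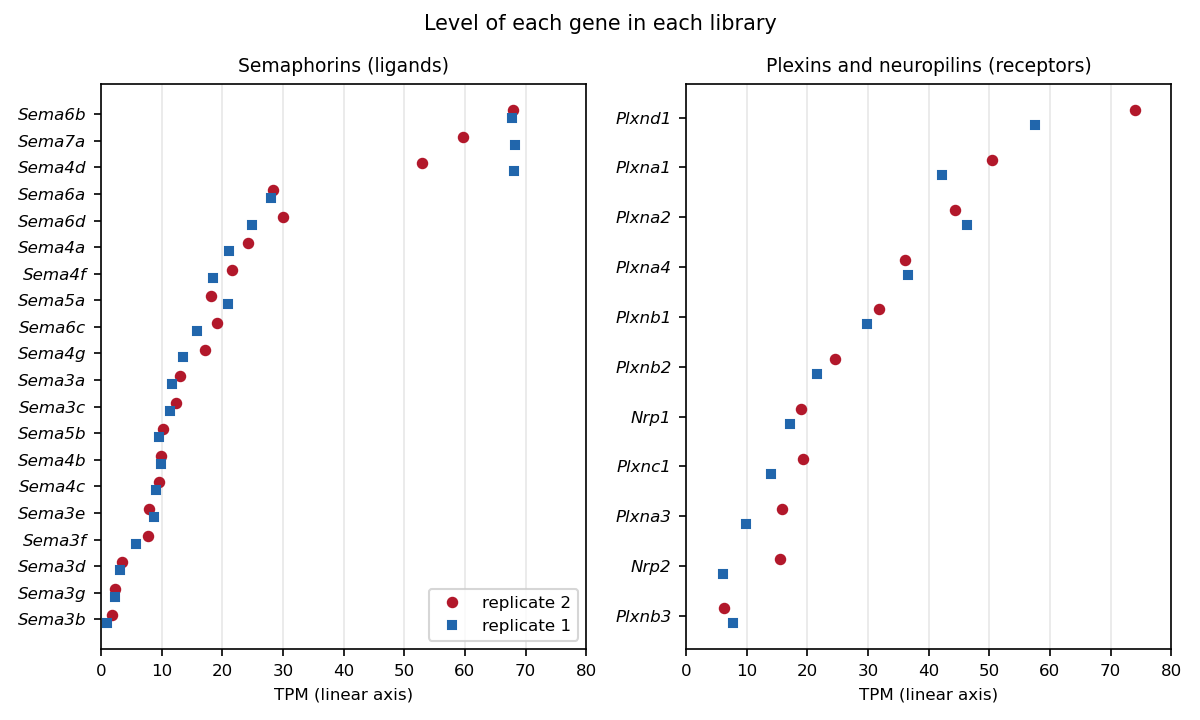
TPM on a linear axis for each semaphorin (left) and each plexin and neuropilin (right) in replicate 2 (circles) and replicate 1 (squares), ordered by mean TPM. Over all transcripts, Sema6b, Sema7a and Sema4d stand above the other ligands in both libraries, and Plxnd1 above the other receptors, while over complete coding transcripts alone, not plotted, Sema4d overlapped with Sema6a.

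Over all transcripts, a group of 3 ligands led in each library by more than the spread between libraries. Sema6b, a class 6 ligand of plexin A4 in axon guidance, reached 67.9 TPM in replicate 2 and 67.8 TPM in replicate 1. Sema7a, which signals through plexin C1 and beta 1 integrin, reached 59.7 TPM in replicate 2 and 68.2 TPM in replicate 1. Sema4d reached 52.9 TPM in replicate 2 and 68.2 TPM in replicate 1. The values of these genes overlap between libraries, so their order among themselves is not resolved, while the next ligand, Sema6a, had 28.4 TPM in replicate 2 and 28.0 TPM in replicate 1 and lay below all of them. The place of Sema4d rests on a partial transcript: over complete coding transcripts alone it had 21.7 TPM in replicate 2 and 26.1 TPM in replicate 1. There it overlapped with Sema6a, with 24.45 TPM in replicate 2 and 26.2 TPM in replicate 1, and was close to Sema6d, with 22.7 TPM in replicate 2 and 21.1 TPM in replicate 1.

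Within class 6, Sema6d had 30.0 TPM in replicate 2 and 24.9 TPM in replicate 1, and Sema6c had 19.1 TPM in replicate 2 and 15.8 TPM in replicate 1. Sema6a, a ligand of plexin A2 and plexin A4, overlapped with Sema6d. In class 4, Sema4a, known also from the immune system, had 24.3 TPM in replicate 2 and 21.1 TPM in replicate 1. Sema4f, which binds a postsynaptic scaffold protein, had 21.6 TPM in replicate 2 and 18.5 TPM in replicate 1. Sema4g, a ligand of plexin B2, had 17.1 TPM in replicate 2 and 13.5 TPM in replicate 1. Sema4b had 9.81 TPM in each library and Sema4c, another ligand of plexin B2, had 9.55 TPM in replicate 2 and 9.10 TPM in replicate 1, so class 4 spanned the range from the leading to the low ligands.

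The class 5 ligands carry thrombospondin repeats outside the membrane. Sema5a, which limits spine number on granule cells of the dentate gyrus, had 18.1 TPM in replicate 2 and 20.96 TPM in replicate 1, and Sema5b had 10.3 TPM in replicate 2 and 9.50 TPM in replicate 1. The secreted genes were all low. Sema3a, which repels cortical axons and orients apical dendrites, had 12.9 TPM in replicate 2 and 11.7 TPM in replicate 1. Sema3c, an attractant for callosal axons, had 12.4 TPM in replicate 2 and 11.4 TPM in replicate 1 and overlapped with Sema3a. Sema3e, which binds plexin D1 without a neuropilin, had 7.94 TPM in replicate 2 and 8.73 TPM in replicate 1. Sema3f, the ligand of neuropilin 2 that prunes axons and spines, had 7.68 TPM in replicate 2 and 5.81 TPM in replicate 1. Sema3d had 3.39 TPM in replicate 2 and 3.21 TPM in replicate 1 and Sema3g, a ligand of neuropilin 2 best known from blood vessels, had 2.29 TPM in replicate 2 and 2.35 TPM in replicate 1, and both lay below every other ligand but Sema3b.

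Among the receptors, plexin A genes formed the largest class, with 147 TPM in replicate 2 and 135 TPM in replicate 1, yet the highest single receptor was Plxnd1, the receptor of Sema3e, with 74.0 TPM in replicate 2 and 57.5 TPM in replicate 1. Plxna1 had 50.5 TPM in replicate 2 and 42.2 TPM in replicate 1, and overlapped with Plxna2, which had 44.4 TPM in replicate 2 and 46.4 TPM in replicate 1. Plxna4, a receptor of Sema3a and of class 6 ligands, had 36.2 TPM in replicate 2 and 36.6 TPM in replicate 1. Plxna3, which pairs with neuropilin 2 for Sema3f, was the lowest plexin A gene with 15.8 TPM in replicate 2 and 9.95 TPM in replicate 1.

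The class B receptors came to 62.8 TPM in replicate 2 and 59.3 TPM in replicate 1. Plxnb1 had 31.8 TPM in replicate 2 and 29.9 TPM in replicate 1, Plxnb2 had 24.6 TPM in replicate 2 and 21.6 TPM in replicate 1, and Plxnb3 had 6.33 TPM in replicate 2 and 7.73 TPM in replicate 1. Plxnc1, the receptor of Sema7a, had 19.4 TPM in replicate 2 and 14.0 TPM in replicate 1. The neuropilins differed in how steady they were. Nrp1, the co-receptor for Sema3a, had 18.9 TPM in replicate 2 and 17.1 TPM in replicate 1. Nrp2 had 15.5 TPM in replicate 2 and 6.11 TPM in replicate 1, and its values lay on either side of those of Plxnb3. The order of Nrp2 and Plxna3 is not resolved. Over complete coding transcripts Nrp2 was above Plxna3 in replicate 2, at 14.8 TPM against 8.19 TPM. In replicate 1 it was below, at 5.75 TPM against 6.53 TPM.

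Short annotated transcripts weigh on some of these levels, because few reads on a short transcript give a high TPM. A retained-intron transcript of Plxna1 of 372 bases held 39.4 counts and 7.03 TPM in replicate 2 and none in replicate 1, and the complete coding transcripts of the gene held 43.1 TPM in replicate 2 and 42.2 TPM in replicate 1. In Plxnd1 a retained-intron transcript of 442 bases held 17.4 TPM in replicate 2 and 9.67 TPM in replicate 1, and the complete coding transcripts held 51.5 TPM in replicate 2 and 43.9 TPM in replicate 1. Counted over complete coding transcripts alone, the same 10 genes were the highest of the family, though Sema4d then overlapped with Sema6a. Under 60% of the TPM lay on complete coding transcripts in both libraries for 4 genes, among them Sema4d with 41.1% in replicate 2 and 38.3% in replicate 1 and Sema3b with 27.5% in replicate 2 and 23.7% in replicate 1. The same transcript led in both libraries for 28 of the 31 genes.

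Both main forms of neuropilin 2 were higher in replicate 2. Transcripts ending in the farther last coding exon held 8.51 TPM in replicate 2 and 3.70 TPM in replicate 1, and those ending in the nearer one held 6.30 TPM in replicate 2 and 2.05 TPM in replicate 1. On counts, the log2 ratio of replicate 2 over replicate 1 was 1.14 ± 0.08 for the farther and 1.52 ± 0.10 for the nearer exon (counting SE, without the error of assigning reads to transcripts). The farther form held the larger share in both libraries, 55.0% in replicate 2 and 60.5% in replicate 1 of the gene's TPM. Transcripts with the cassette held 2.13 TPM in replicate 2 and 0.83 TPM in replicate 1. The long form of the alternative exon was given 1.79 TPM in replicate 2 and listed at 0 in replicate 1, but its assignment error was 169 counts beside 218 counts in replicate 2, so this difference is not resolved.

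In Sema6d, transcripts with neither cassette held 9.82 TPM in replicate 2 and 10.3 TPM in replicate 1, or 32.8% of the gene in replicate 2 and 41.2% in replicate 1. Those with the second cassette held 12.1 TPM in replicate 2 and 8.31 TPM in replicate 1, 40.3% in replicate 2 and 33.3% in replicate 1, and those with the first held 9.21 TPM in replicate 2 and 7.67 TPM in replicate 1. The second transcript table gave 38.4% in replicate 2 and 42.8% in replicate 1 for neither cassette and 43.0% in replicate 2 and 36.8% in replicate 1 for the second. The classes thus kept the same order of shares by library in both tables, with assignment errors for the second cassette of 206 on 1432 counts in replicate 2 and of 134 on 883 counts in replicate 1. In Sema4d the partial transcript held 23.0 TPM in replicate 2 and 30.8 TPM in replicate 1, from 543 counts in replicate 2 and 759 counts in replicate 1, and the full coding transcripts held 21.7 TPM in replicate 2 and 26.1 TPM in replicate 1, from 1952 counts in replicate 2 and 2451 counts in replicate 1. The level of Sema4d per length therefore rests in large part on a transcript of 1249 bases.

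**Figure D2:**
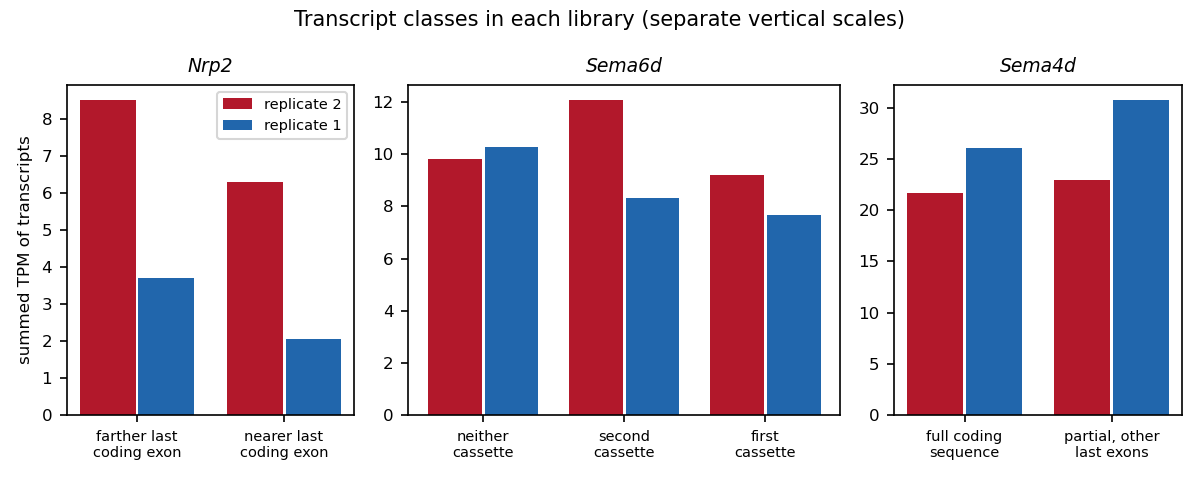
Summed TPM of transcript classes of Nrp2, Sema6d and Sema4d in replicate 2 (left bars) and replicate 1 (right bars), on vertical scales that start at 0 and differ between genes. Both Nrp2 forms are higher in replicate 2, both Sema4d classes are lower in replicate 2, and in Sema6d the bars with a cassette are higher in replicate 2 while those with neither are close. Sema6d transcripts with both cassettes are counted in the bars of each cassette.

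Ligands were then paired with receptors they are known to bind, in 32 pairs that share many genes, and each pair was expressed within a library as the log2 ratio of (TPM + 0.1), ligand over receptor. With 2 libraries no exact test can go below p = 0.5, so ratios are given with their SD and without a test. The receptor was the higher gene in both libraries in 24 pairs, the ligand in 7, and in 1 pair the sign differed between libraries. Among the 24, Sema3f over Nrp2 and Sema5b over Plxna3 were near 0 in replicate 1, at −0.07 each. In the second transcript table they were 0.12 and 0.08 in replicate 1, and Sema5b over Plxna3 was 0.07 there over complete coding transcripts.

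The ligand exceeded its receptor most clearly for Sema7a over Plxnc1, with a log2 ratio of 1.62 in replicate 2 and 2.28 in replicate 1 (mean 1.95 ± 0.47, SD, n = 2). Sema4d exceeded Plxnb2 by 1.10 in replicate 2 and 1.65 in replicate 1, and Plxnb1 by 0.73 in replicate 2 and 1.19 in replicate 1. Over complete coding transcripts alone the mean ratios were 0.70 over Plxnb2 and 0.37 over Plxnb1, against 1.38 and 0.96 over all transcripts. Sema6b exceeded Plxna4 by 0.91 in replicate 2 and 0.89 in replicate 1 and Plxna2 by 0.61 in replicate 2 and 0.55 in replicate 1, and these ratios differed between libraries by 0.02 and 0.07. Sema5a exceeded Plxnb3 by 1.498 in replicate 2 and 1.43 in replicate 1, and Plxna3 by 0.19 in replicate 2 and 1.07 in replicate 1.

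The secreted ligands lay below their receptors in both libraries, apart from Sema3c over Nrp2 in replicate 1. In the second transcript table Sema3f over Nrp2 was above 0 in replicate 1 as well, at 0.12. Over all transcripts Sema3e was lowest against its receptor, at −3.20 over Plxnd1 in replicate 2 and −2.71 in replicate 1, followed by Sema3b over Nrp2 at −3.02 in replicate 2 and −2.54 in replicate 1. Sema3b over Nrp2 was the lower pair in the second transcript table, with a mean of −2.89 against −2.75 for Sema3e over Plxnd1, and over complete coding transcripts, with a mean of −4.39 against −2.70. Sema3a over Nrp1 was −0.54 in replicate 2 and −0.55 in replicate 1, and Sema3a over Plxna4 was −1.48 in replicate 2 and −1.64 in replicate 1. Sema3c over Nrp1 was −0.61 in replicate 2 and −0.58 in replicate 1. Class 6 ligands other than Sema6b also lay below their plexins, with Sema6a at −0.35 in replicate 2 and −0.39 in replicate 1 over Plxna4 and Sema6d at −0.75 in replicate 2 and −0.76 in replicate 1 over Plxna1.

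**Figure D3:**
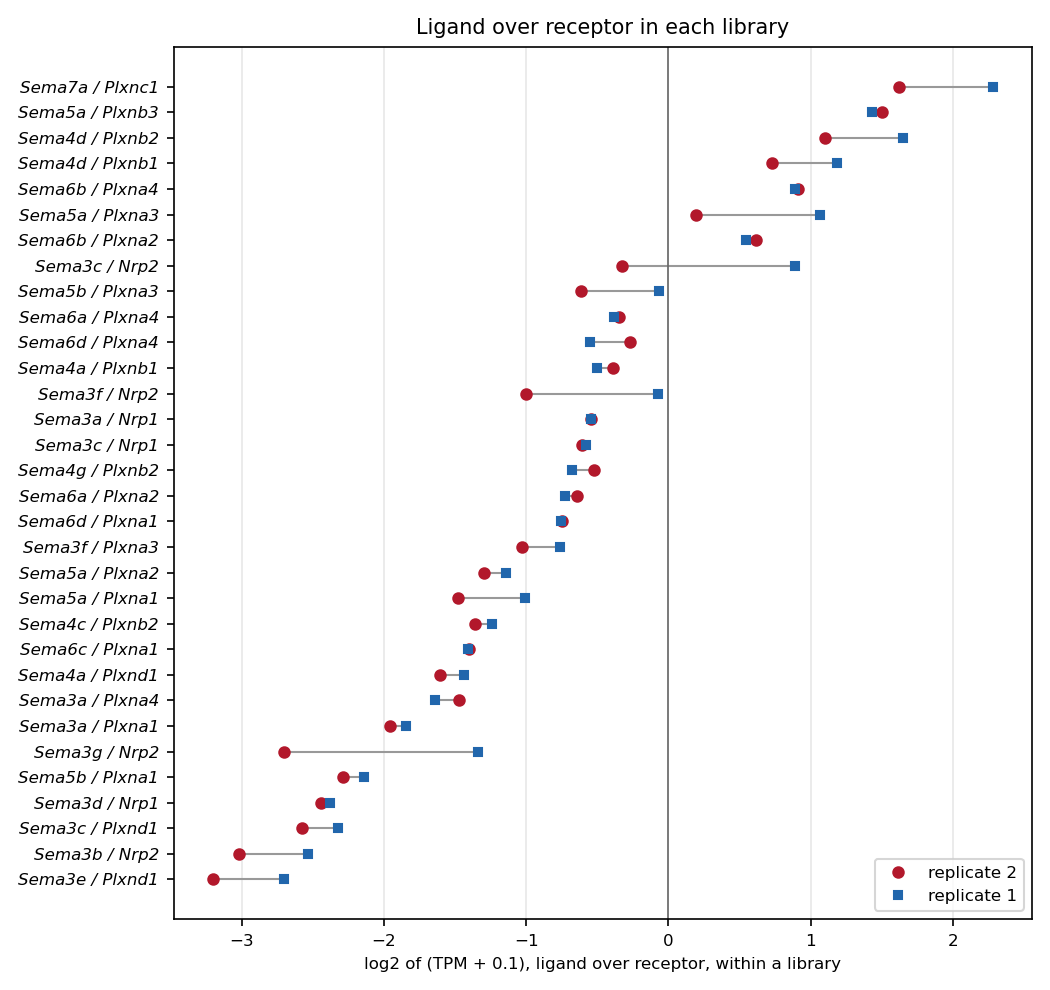
Log2 ratio of (TPM + 0.1), ligand over receptor, in replicate 2 (circles) and replicate 1 (squares) for 32 pairs ordered by mean. Points right of 0 have more ligand than receptor, and the 3 longest grey lines belong to pairs with Nrp2 as the receptor.

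The 3 pairs that differed most between libraries had Nrp2 as the receptor. Sema3c over Nrp2 was −0.32 in replicate 2 and 0.89 in replicate 1, a difference of −1.21, so that the receptor was the higher gene in replicate 2 and the ligand in replicate 1. Sema3f over Nrp2 was −1.003 in replicate 2 and −0.07 in replicate 1, a difference of −0.93, and Sema3g over Nrp2 was −2.71 in replicate 2 and −1.34 in replicate 1, a difference of −1.36. Taken from counts, which short transcripts affect less, these differences were −1.30 ± 0.08 for Sema3c, −1.18 ± 0.12 for Sema3f and −1.35 ± 0.15 for Sema3g (counting SE). The remaining pair with this receptor, Sema3b over Nrp2, differed by −0.48 from TPM and by −0.91 ± 0.24 from counts. All 4 share the counts of Nrp2 and are not separate observations.

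Pairs without Nrp2 moved less than the first 3 of these. Sema7a over Plxnc1 was lower in replicate 2 by a difference of −0.66 from TPM and −0.65 ± 0.05 from counts, with the ligand lower and the receptor higher. Sema5a over Plxna3 differed by −0.87 from TPM and −0.59 ± 0.07 from counts. A difference of 0.3 or more in size, a limit set after the values were seen, was reached by 11 pairs from TPM and 11 from counts, and by 10 pairs in both, and each of the 10 was lower in replicate 2. Nrp2 is the receptor in 4 of the 32 pairs. The 10 were these 4, Sema4d over Plxnb1 and over Plxnb2, Sema5a and Sema5b over Plxna3, Sema3e over Plxnd1, and Sema7a over Plxnc1. In the second transcript table Sema3e over Plxnd1 fell short of 0.3, at −2.82 in replicate 2 and −2.68 in replicate 1. Over complete coding transcripts Sema4d over Plxnb1 fell short, at 0.23 in replicate 2 and 0.51 in replicate 1. Pairs that share a gene are not separate observations.

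The difference between the libraries was tested for every gene by an exact binomial test of its counts, two-sided, with Benjamini-Hochberg adjustment over 18887 genes. This test takes counting error alone, so it compares these libraries and not a condition. It called 14 of the 31 family members, 6 higher and 8 lower in replicate 2, against a background of 20.3% of all tested genes called (8.88% higher and 11.4% lower). Because deeper genes are called more often, the better background is that of the 7731 genes with 1000 to 20000 counts over both libraries, of which 29.8% were called, beside 13 of the 27 members in that range. The median log2 ratio was −0.02 over the family and 0.00 over all tested genes. With a spread between libraries assumed in edgeR's exact test, at a dispersion of 0.01, Nrp2 alone remained called (adjusted p = 1.85e-06), against a background of 0.964%. At a dispersion of 0.04 none was (adjusted p = 0.44 for Nrp2), against 0.291%.

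**Figure D4:**
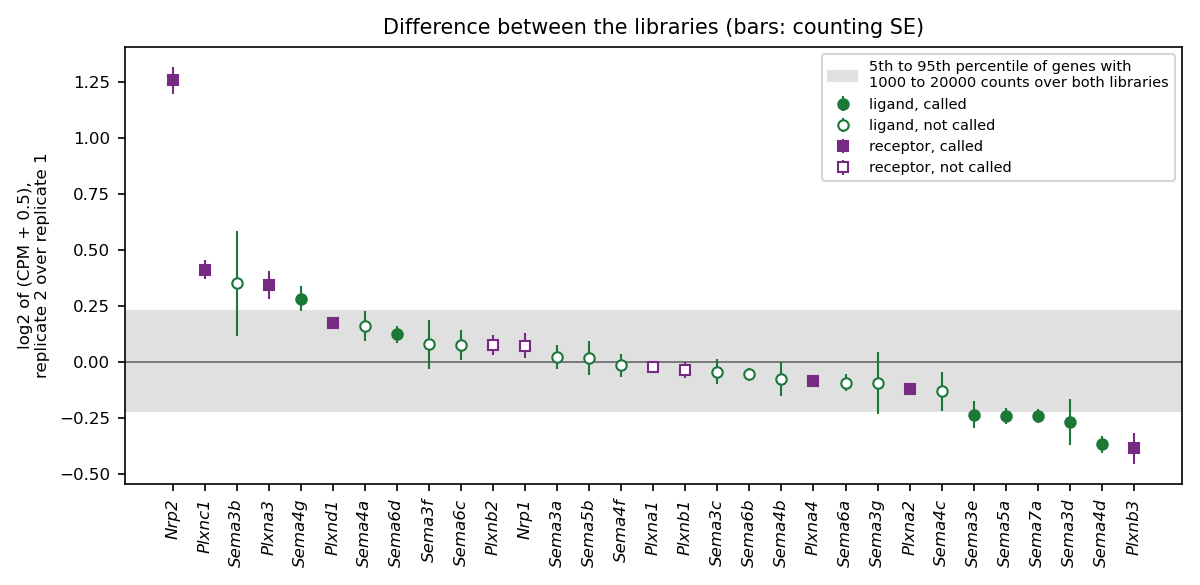
Log2 ratio of (CPM + 0.5), replicate 2 over replicate 1, for the 31 genes with counting SE. Filled marks are called by the exact binomial test, circles are ligands, squares are receptors, and the grey band spans the 5th to 95th percentile (−0.22 to 0.23) of genes with 1000 to 20000 counts over both libraries. Nrp2, at 1.26, lies far above the band and all other members.

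Nrp2 was the largest difference of the family. It received 1989 counts in replicate 2 and 822 counts in replicate 1, a log2 ratio of 1.26 ± 0.06 or 2.39-fold (adjusted p = 6.45e-108, edgeR TMM library sizes and exact binomial test). A log2 ratio of this size or more, in either direction, was found for 55 of the 18887 tested genes, and one of 1 or more for 0.657% of them. Among the 6362 genes with 800 counts or more in both libraries, a limit chosen after the values were seen, none but Nrp2 reached it. With the limit at 500 counts, Scn4b, a sodium channel subunit of striatal neurons, exceeded it with a log2 ratio of −1.63.

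Nrp2 was not alone in this direction, as 8.88% of all tested genes were called higher in replicate 2. With 2 libraries, genes that differ in the same direction cannot be shown to vary together. Among genes with at least 500 counts in both libraries, those next on the higher side in replicate 2 included Hap1, with 71.2 TPM in replicate 2 and 31.4 TPM in replicate 1, and Htr2c, a serotonin receptor, with 16.5 TPM in replicate 2 and 8.21 TPM in replicate 1. After Htr2c came Zc3h11a, Otof, Rreb1 and Clk1, with log2 ratios from 0.86 to 0.77. Nr2f2, a transcription factor, followed with 22.0 TPM in replicate 2 and 12.2 TPM in replicate 1. These were chosen after their values were seen. A hypothalamus and amygdala list, also added then, had 3 of its 4 tested genes higher, with a summed level over its 8 genes of 17.4 TPM in replicate 2 against 1.46 TPM in replicate 1, where Oxt, Pmch and Hcrt were at 0. Most of that sum was Avp, with 10.25 TPM in replicate 2 and 0.10 TPM in replicate 1, and Trh, with 5.76 TPM in replicate 2 and 1.09 TPM in replicate 1. Nkx2-1, with 12 counts in replicate 2 and 9 counts in replicate 1, was not called. In an olfactory bulb list 2 of 5 tested genes were higher (32.3 TPM in replicate 2 against 21.1 TPM in replicate 1), and in a hippocampus list 1 of 6 (24.4 TPM in replicate 2 against 19.7 TPM in replicate 1). The other tested genes of both lists were not called, and Spink8 (−0.51) and Th (−0.08) had negative log2 ratios. The part of these tissues, and of the choroid plexus genes, in the Nrp2 result was not tested.

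Among the remaining receptors, Plxnc1 was higher, with 2687 counts in replicate 2 and 2014 counts in replicate 1 (log2 ratio 0.41 ± 0.04, adjusted p = 5.19e-21, exact binomial test). Plxna3 was higher as well, with 1288 counts in replicate 2 and 1011 counts in replicate 1 (0.35 ± 0.06), and Plxnd1 by less, with 7375 counts in replicate 2 and 6522 counts in replicate 1 (0.18 ± 0.02). The ratio of Plxnd1 lay inside the range of genes of like depth, −0.22 to 0.23 (5th to 95th percentile). Plxnb3 was lower, with 737 counts in replicate 2 and 967 counts in replicate 1 (−0.38 ± 0.07, adjusted p = 5.83e-07, exact binomial test). Plxna2 and Plxna4 were called lower at log2 ratios of −0.12 ± 0.02 and −0.08 ± 0.02, well inside the range of genes of like depth. The ratio of Plxna2 was −0.06 under scaling to total gene counts and −0.07 under scaling to spike-ins, where it was still called, and −0.04 after removal of length and expression trends. The call of Plxna4 was lost under scaling to total gene counts (−0.02) and to spike-ins (−0.03).

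Among the ligands, Sema4d was lower, with 2577 counts in replicate 2 and 3327 counts in replicate 1 (log2 ratio −0.37 ± 0.04, adjusted p = 1.53e-20, exact binomial test). Sema7a, with 3923 counts in replicate 2 and 4642 counts in replicate 1, and Sema5a, with 3155 counts in replicate 2 and 3731 counts in replicate 1, were both lower, with log2 ratios of −0.24 ± 0.03 each. Sema3e, with 1050 counts in replicate 2 and 1238 counts in replicate 1, was lower too (−0.23 ± 0.06). Sema3d, with 353 counts in replicate 2 and 428 in replicate 1, was called narrowly lower (adjusted p = 0.0419, exact binomial test), a call lost with a count minimum of 1, in the second transcript table and under scaling to total or spike-in counts, where the adjusted p lay between 0.0502 and 0.131. Its TPM, 3.39 in replicate 2 and 3.21 in replicate 1, did not follow its counts. Sema4g was higher, with 1421 counts in replicate 2 and 1164 counts in replicate 1 (0.29 ± 0.06), and so was Sema6d, with 2919 counts in replicate 2 and 2676 counts in replicate 1 (0.13 ± 0.04). The ratio of Sema6d lay inside the range of genes of like depth, −0.22 to 0.23. Those of Sema7a, Sema5a and Sema3e lay just beyond its lower end.

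Sema4d and Plxnb3, the members with the lowest log2 ratios, are known from oligodendrocytes, and both lay within the direction of the myelin list, whose 8 genes ran from −1.10 to −0.76 with none at 0 in either library. Sema4d at −0.37 and Plxnb3 at −0.38 were smaller in size than every gene of that list. The 7 genes of the striatal list were lower as well, from −1.18 to −0.33, a range that holds the values of both members. The part of oligodendrocyte or striatal content in the values of Sema4d and Plxnb3 was not tested. The 17 members that were not called included Sema6b (log2 ratio −0.05 ± 0.03), Plxna1 (−0.02 ± 0.02), Plxnb1 (−0.03 ± 0.03), Nrp1 (0.08 ± 0.06) and Sema3a (0.02 ± 0.05).

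The partners of the family were given by a list of 49 genes, of which 45 reached 1 TPM in both libraries. Of 48 tested, 8 were higher and 8 lower in replicate 2, beside the 20.3% of all tested genes called, with a median log2 ratio of −0.03, and none reached 0.5 in size among those called. Of the 32 partner genes with 1000 to 20000 counts over both libraries 11 were called, a share near the 29.8% of all genes at that depth. Adhesion co-receptors were abundant: Nrcam had 246 TPM in replicate 2 and 254 TPM in replicate 1, and L1cam, the co-receptor of Nrp1 for Sema3a, had 114 TPM in replicate 2 and 96.4 TPM in replicate 1. Among other receptors, Itgb1, the integrin subunit that binds Sema7a, had 37.5 TPM in replicate 2 and 36.2 TPM in replicate 1, and Met had 17.9 TPM in replicate 2 and 17.6 TPM in replicate 1. Vegfa, which competes for neuropilins, had 41.7 TPM in replicate 2 and 33.9 TPM in replicate 1, and Furin, a protease that processes class 3 ligands, had 21.9 TPM in replicate 2 and 19.6 TPM in replicate 1.

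Several intracellular partners were more abundant than any of the receptors. Dpysl2 (CRMP2), which carries Sema3a signals to microtubules, had 334 TPM in replicate 2 and 325 TPM in replicate 1, and Crmp1 had 178 TPM in replicate 2 and 164 TPM in replicate 1. Mical2, of a family of actin-oxidising enzymes that bind plexins, had 235 TPM in replicate 2 and 256 TPM in replicate 1, and Mical3 had 50.6 TPM in replicate 2 and 47.6 TPM in replicate 1. The exchange factors Arhgef12 and Farp1 had 73.6 TPM and 60.1 TPM in replicate 2, against 69.7 TPM and 56.9 TPM in replicate 1. Rac1 had 190 TPM in replicate 2 and 196 TPM in replicate 1, and Rhoa had 93.4 TPM in replicate 2 and 90.9 TPM in replicate 1. Cdk5r1, the activator of Cdk5, had 170 TPM in replicate 2 and 157 TPM in replicate 1, and the kinase Pak1 had 129 TPM in replicate 2 and 140 TPM in replicate 1. Cfl1, the actin-severing cofilin at the end of the pathway, had 836 TPM in replicate 2 and 875 TPM in replicate 1, and the adaptor Gipc1, which binds neuropilin tails, had 49.3 TPM in replicate 2 and 50.3 TPM in replicate 1.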

How the data were processed

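Gene and transcript tables of each library, as the authors deposited them, were made from an alignment to the transcriptome. Another transcript table, called the second table here, was made from the reads directly. All use mm10 and GENCODE M21, per the text notes deposited beside the tables. Expected counts are estimated reads per feature, not normalised, per the file headers. TPM values were scaled by the authors so that each table, with its spike-ins, has the same sum. A posterior standard deviation score, deposited beside each count, gives the error of assigning reads. Tools, versions and strand settings: not given in the sources used here. Overlapping genes of the members held few counts: of those on the opposite strand that share exon bases with a member, D430040D24Rik at Sema4c had the most, with 21 counts in replicate 2 and 27 counts in replicate 1.

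The members, pairs and lists were chosen with earlier results of these data known. Pairs and roles come from textbook knowledge. Every member that reached 1 TPM in both libraries and every called member is named. Of the partner list, the genes with the highest mean TPM of each sublist are named, and those called with a log2 ratio of 0.5 or more, of which there were none.

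Expected counts were rounded and compared between libraries with a two-sided exact binomial test (scipy 1.17.1) on edgeR 4.0.16 TMM library sizes (R 4.3.3) for genes that reached 10 counts in either library, with Benjamini-Hochberg adjustment and calls at an adjusted p under 0.05. This design assumes no spread beyond counting. Ratios are log2 of (CPM + 0.5), which understates changes of low genes. On simulated counts of the 18887 genes, with counting error alone, the test called 62% of genes changed 1.5-fold, 76% at 2-fold, 96% at 4-fold and 9 of 18687 unchanged genes. Alternatives were DESeq2 1.42.0 size factors, total and spike-in scaling, other count minimums, the second table, assumed dispersions, trend removal, another pseudocount and leaving out a library. Trend removal with GC content, the restriction to complete coding transcripts, and 3 marker lists were added after the data were seen. A further 26248 numbered rows that name no gene and 96 ERCC rows were left out. The numbered rows held 4.84 counts in replicate 2 and 5 counts in replicate 1. Members received 67 to 10198 counts per library. The mice carry 2 parental genomes, and whether reads of both were aligned alike was not tested.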

Additional observations from a re-analysis of the deposited data

How the results depend on the processing

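The family count of 14 called members was 13 to 15 under DESeq2 size factors, total and spike-in scaling, count minimums of 1 and 50 and the second transcript table. With an assumed dispersion of 0.01 and 0.04 it was 1 and 0, the count over all genes was 182 and 55 beside 3830, and the partner list had 0 calls under both beside 16. The split of calls over all genes was 1678 higher and 2152 lower, but 2733 and 1145 with total scaling and 2570 and 1229 with spike-in scaling, and that of the family 6 and 8, but 8 and 6 under both. Under those scalings Plxnb2 and Sema4a were called higher and Plxna4 and Sema3d were not called. After removal of length, expression and GC trends Plxna4 turned to 0.012, and Nrp2 had 1.29. The median GC content of the longest transcripts was 56.2% in the family and 49.1% in all tested genes. The ratio of Sema3c over Nrp2 ranged from −0.32 without replicate 1 to 0.89 without replicate 2. The pairs with the ligand higher in both libraries numbered 7 under every alternative for pairs but leaving out replicate 2, which gave 8. No paired analysis was possible because there is 1 group. With 2 libraries, depth sets the counting error of each gene but cannot give the spread between mice.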

Other observations

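Several members were made as transcripts whose split between libraries could not be resolved. Plxnb2 has a pair of annotated transcripts with the same coding length of 5526 bases. The longer of them was given 14.2 TPM in replicate 2 and 8.15 TPM in replicate 1, and the shorter 1.10 TPM in replicate 2 and 5.89 TPM in replicate 1. The assignment errors on the shorter were 238 counts in replicate 2 and 206 counts in replicate 1. In Sema4a, the leading transcript of replicate 2 was given 7.47 TPM in replicate 2 and 3.27 TPM in replicate 1, and that of replicate 1, with the same coding length of 2280 bases, 3.96 TPM in replicate 2 and 5.68 TPM in replicate 1.

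Some members share a chromosome. Sema3a, Sema3c, Sema3d and Sema3e all lie on chromosome 5, and their log2 ratios of replicate 2 over replicate 1 were 0.02, −0.04, −0.27 and −0.23. Plxna3 and Plxnb3 both lie on the X chromosome and went opposite ways between the libraries, at 0.35 and −0.38.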
